A study of Mus musculus with 12 samples.

Results

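The 10 T helper cytokine genes described here are *Il2*, *Il21*, *Il10*, *Ifng*, *Tnf*, *Il4*, *Il17a*, *Csf2*, *Lif* and *Il3*, taken as a named list from the 56691 mouse genes of the count table. Reads were counted on 7 of the 10, and *Il4*, *Csf2* and *Il3* had 0 reads in all 12 libraries. The libraries came from splenic CD4+ T cells of 12 mice, 3 in each of 4 groups, and each library is 1 mouse. All mice were Tg4 Nr4a3-Tocky IL-10 GFP animals, in which the T cells carry a transgenic receptor for a myelin basic protein peptide, a fluorescent Timer protein reports transcription of *Nr4a3*, and GFP reports *Il10*. Every mouse was primed with 4 mg/kg of the peptide, was given 0.5 mg of antibody after 24 h and 0.4 mg/kg of peptide 30 min after that, and was killed 12 h later. The isotype group had a pool of rat IgG1 and rat IgG2a, the anti-Lag3 and anti-PD-L1 groups had 1 blocking antibody, and the co-blockade (CB) group had both. Only cells that held both the blue and the red form of the Timer were sequenced, so that the values describe cells already responding to peptide and not the number of such cells.

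T helper cytokines are short-lived messages that CD4+ T cells transcribe when the T cell receptor signals through NFAT, AP-1 and NF-κB. IL-2 drives T cell growth, IL-21 supports B cells and germinal centres, IFN-γ and TNF mark type 1 responses, IL-4 type 2 and IL-17A type 17 responses, and IL-10 restrains inflammation. PD-1, whose ligand is PD-L1, and Lag3 are inhibitory receptors that dampen this signalling.

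Several of these genes share a promoter feature. In the RefSeq promoters for GRCm38.p6, 9 of the 10 genes had an entry, with 10 promoters because *Il4* has 2 start sites, and *Il10* had none. The NFAT core GGAAAA, searched on both strands in the 250 bases before the start, occurred in 20.4% of 32536 mouse promoters, and 2.84% held 2 or more. Of the 10 cytokine promoters, 4 held 2 or more. These are printed below, 5′ to 3′ on the strand of the gene and with the core in capitals (GGAAAA, or TTTTCC where it lies on the other strand), because they include the only cytokine gene called between CB and isotype (*Il21*), a low gene (*Il2*), another gene that did not pass the test (*Tnf*) and a gene without reads (*Il4*). They lie at chr3:37232637-37232886 for *Il21*, chr3:37125955-37126204 for *Il2*, chr17:35202008-35202257 for *Tnf* and chr11:53618666-53618915 for the second *Il4* start, all on the minus strand.
Il21: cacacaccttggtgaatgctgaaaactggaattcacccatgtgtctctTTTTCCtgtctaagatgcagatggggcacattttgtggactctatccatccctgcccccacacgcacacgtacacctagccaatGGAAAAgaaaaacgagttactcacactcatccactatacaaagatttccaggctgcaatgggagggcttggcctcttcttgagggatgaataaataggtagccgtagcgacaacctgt
Il2: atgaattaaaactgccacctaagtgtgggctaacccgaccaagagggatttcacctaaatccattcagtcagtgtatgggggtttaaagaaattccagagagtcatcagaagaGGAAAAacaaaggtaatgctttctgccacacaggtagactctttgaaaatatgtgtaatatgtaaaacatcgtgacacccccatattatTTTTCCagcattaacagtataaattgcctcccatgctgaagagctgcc
Tnf: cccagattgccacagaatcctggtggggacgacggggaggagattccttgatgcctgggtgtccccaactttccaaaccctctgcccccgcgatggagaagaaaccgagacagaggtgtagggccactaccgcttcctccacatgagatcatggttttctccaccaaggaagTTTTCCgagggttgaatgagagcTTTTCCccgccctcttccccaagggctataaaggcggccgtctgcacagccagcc
Il4: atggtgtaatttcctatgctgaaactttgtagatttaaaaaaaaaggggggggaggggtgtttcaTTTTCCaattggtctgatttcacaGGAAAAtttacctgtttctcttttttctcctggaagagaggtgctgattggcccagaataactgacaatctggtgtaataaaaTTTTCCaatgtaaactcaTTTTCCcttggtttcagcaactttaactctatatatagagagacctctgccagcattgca
The *Il4* promoter held 4 copies of the core, a number reached by 0.0400% of all promoters; no *Il4* read was counted. The AP-1 motif TGANTCA, on both strands, occurred in 6.73% of all promoters and in those of *Lif* and *Il17a*, and neither motif occurred in the windows of *Ifng*, *Csf2*, *Il3* or the first *Il4* start. The motifs share no match in any of these windows. The *Csf2* window, chr11:54249900-54250149 on the minus strand, lies upstream of the *Csf2* start at 54249667 in the GENCODE annotation. The bases between that start and the window were not searched. The window of the first *Il4* start lies inside the *Il4* gene of that annotation. A match is a string of letters and not a measured binding site.

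The libraries held between 16449370 and 22151025 reads on mouse genes (median 19176439), so that 3 reads, the limit that a count of 0 allows, stood for 0.135 to 0.182 CPM (read counts scaled to a common library size) in a single library. These limits cover counting error only, since reads without molecular identifiers are not independent molecules. The 12 libraries together held 12101 reads of the cytokine genes. All 6 CD4 T cell marker genes were detected in each group, at a summed 1810 to 2249 CPM. B cell markers summed to 1.44 to 20.4 CPM and myeloid and dendritic cell markers to 54.1 to 88.7 CPM. Most reads of the myeloid and dendritic list were those of *Cst3*, with 13004, and the next highest gene, *Lyz2*, had 965. *Lyz2*, *Itgam* (611 reads) and *Cd68* (366 reads) were detected in all 12 libraries. *Csf1r* (243 reads) was at 0 in 4 libraries, *Itgax* (150 reads) in 6 and *Flt3* (47 reads) in 8. The 5 mast cell and basophil markers summed to at most 2.93 CPM. Of these, *Mcpt8* had 106 reads over the 12 libraries, *Cpa3* 50 and *Kit* 27, and *Fcer1a* and *Ms4a2* had 0 reads throughout.

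**Figure D1:**
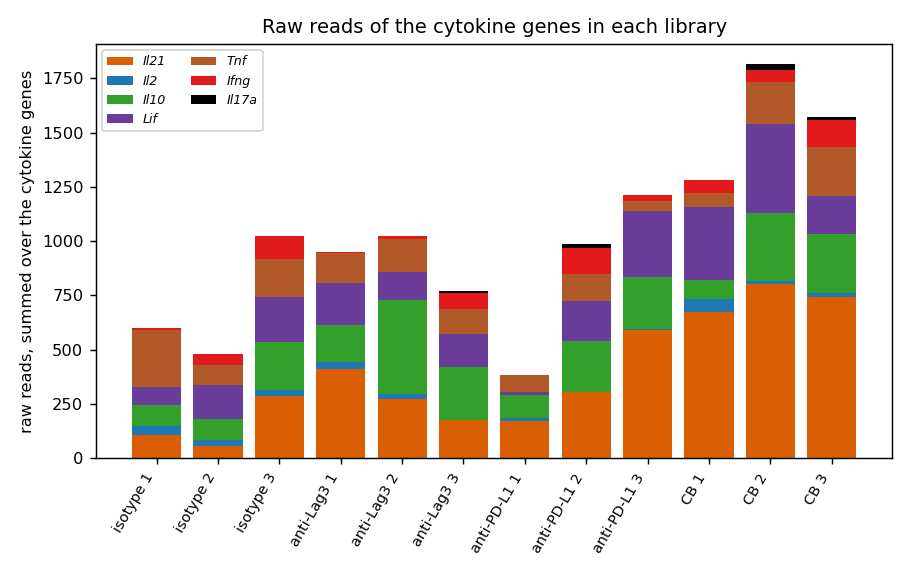
Raw reads of the 7 detected cytokine genes (vertical axis) stacked for each of the 12 libraries (horizontal axis), with 1 colour per gene. The *Il21* segment reaches 676, 801 and 741 reads in the CB libraries and 109, 56 and 285 reads in the isotype libraries.

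Between CB and isotype, *Il21* rose and no other of the 7 tested cytokine genes passed the test. *Il21* (ENSMUSG00000027718, chr3:37222759-37232636, minus strand, GRCm38) encodes the cytokine with which follicular and other helper T cells support B cells. The isotype libraries held 109, 56 and 285 *Il21* reads, the anti-Lag3 libraries 411, 271 and 178, the anti-PD-L1 libraries 173, 303 and 592, and the CB libraries 676, 801 and 741. All 3 CB libraries stood above the other 9, and isotype 3 stood above the other isotype libraries. Scaled for library size and composition, the *Il21* level was 8.04 ± 6.18 CPM in isotype, 14.5 ± 5.81 in anti-Lag3, 18.0 ± 8.49 in anti-PD-L1 and 36.0 ± 2.24 in CB (mean ± SD, n = 3 mice each). The difference between CB and isotype was 2.16 on the log2 scale (SE 0.42, 95% interval 1.31 to 3.01), a 4.47-fold higher level, with an adjusted p of 0.00203 in edgeR's quasi-likelihood test. Among all 15138 genes tested, 4.29% were called in this comparison, and 2.33% were called higher. In RNA from many cells, more *Il21*-producing cells and more *Il21* RNA per cell cannot be told apart. The size of the *Il21* difference depended on isotype 3, without which it was 2.99 on the log2 scale (adjusted p = 8.6e-05).

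Single antibodies gave *Il21* levels between those of isotype and CB. The *Il21* log2 difference from isotype was 1.16 for anti-PD-L1 (interval 0.32 to 2.00, unadjusted p = 0.00840, adjusted p = 0.462, edgeR) and 0.85 for anti-Lag3 (interval 0.01 to 1.68, unadjusted p = 0.0463, adjusted p = 0.805, edgeR). Without isotype 3 these *Il21* values were 1.99 and 1.68 (adjusted p = 0.0582 and 0.338, edgeR). CB exceeded anti-PD-L1 by 1.00 (interval 0.18 to 1.82, adjusted p = 0.417, edgeR) and anti-Lag3 by 1.31 (interval 0.48 to 2.14, adjusted p = 0.159, edgeR), with no overlap between the libraries in either case, as for 12.7% and 14.8% of all genes. The latter difference in *Il21* was called without a filter on low counts (adjusted p = 0.00256), with the replicate number as a block (0.0491) and with the 2 groups alone (0.0174, all edgeR). The order of the group means was isotype, anti-Lag3, anti-PD-L1 and CB, of which anti-Lag3 and anti-PD-L1 differed by 0.31 on the log2 scale with an interval of -0.51 to 1.13. The 3 comparisons with isotype share the same isotype libraries. The interaction, which asks whether the log2 effect of both antibodies exceeded the sum of the single effects, was 0.15 for *Il21* (interval -1.01 to 1.31, adjusted p = 1.00, edgeR).

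Some markers of other cells also differed between isotype and CB. The summed level of 5 NK cell markers was 22.1 to 37.6 CPM in isotype and 11.5 to 17.2 CPM in CB, where *Gzma* supplied most of the reads and *Ncr1* was at 0 in 6 of 12 libraries. The 2 CD8 T cell markers summed to 39.3 to 48.0 CPM in isotype and 24.7 to 33.8 CPM in CB. Nearly all of this was *Cd8b1*, with 7875 reads over the 12 libraries. *Cd8a* had 169 reads and was at 0 in 6 libraries, so that the sum describes *Cd8b1* and not both markers. The 5 erythroid markers summed to 240 to 476 CPM in isotype and 152 to 195 CPM in CB. CD4 T cell markers summed to 2125 to 2249 CPM in isotype and 1810 to 2040 CPM in CB, and 3 regulatory T cell markers to 79.6 to 92.0 and 88.8 to 100 CPM. In the regulatory T cell list, *Ikzf2* held 19270 reads over the 12 libraries and *Foxp3* 609. The part of these cell types in the *Il21* difference was not tested.

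**Figure D2:**
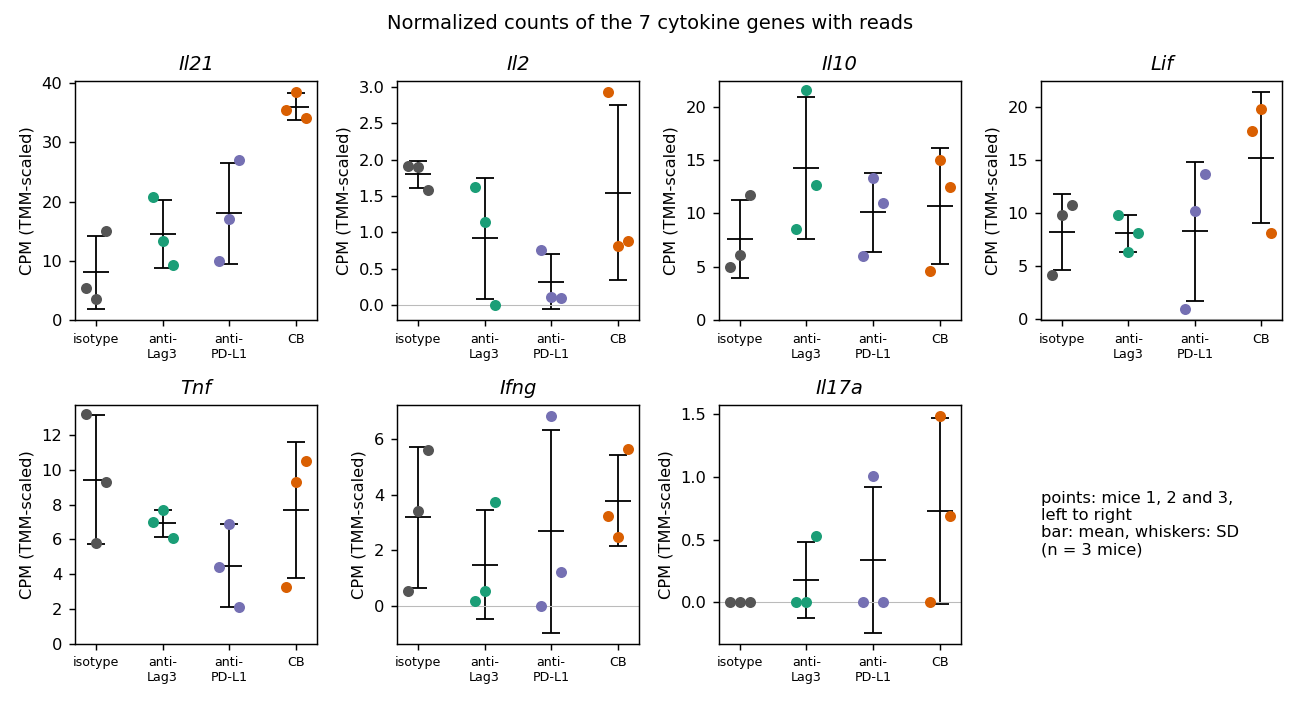
Normalised counts in CPM (vertical axes, linear) of the 7 detected cytokine genes in the 4 groups (horizontal axes), with points for mice 1 to 3, a bar for the mean and whiskers for the SD. *Il21* is at 34.2 to 38.5 CPM in CB and at most 26.9 CPM elsewhere, whereas the CB and isotype points of the other 6 genes overlap.

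The share of cytokine reads that fell on *Il21* was at most 27.9% in isotype libraries and at least 44.1% in CB libraries. *Il21* took 11.6 to 27.9% of the reads of the 10 genes in the isotype libraries, 23.1 to 43.3% in anti-Lag3, 30.7 to 48.9% in anti-PD-L1 and 44.1 to 52.7% in CB. These are shares of reads from the 3′ end of messages, and they restate the *Il21* counts against the other members. Over the 12 libraries and 10447 other genes that averaged 30 or more reads, the log2 CPM of *Il21* was most like that of *Hspa5*, which encodes an endoplasmic reticulum chaperone (Pearson r = 0.965), *Mafg*, which encodes a small Maf transcription factor (0.955), and *Arl4a*, which encodes a small GTPase (0.938). The 12 points share the group differences, and the values are given as a description.

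*Il2*, the T cell growth factor gene that neighbours *Il21*, was low, and no difference in it passed the test. *Il2* (ENSMUSG00000027720, chr3:37120523-37125959, minus strand) lies 96.8 kb from *Il21*. The isotype libraries held 38, 30 and 30 *Il2* reads, the anti-Lag3 libraries 32, 23 and 0, the anti-PD-L1 libraries 13, 2 and 2, and the CB libraries 56, 17 and 19. All anti-PD-L1 libraries stood below all isotype libraries, where 11.8% of all genes were without overlap in CPM, and CB 1 alone stood above isotype. The mean level was 1.80 ± 0.18 CPM in isotype, 0.919 ± 0.832 in anti-Lag3, 0.319 ± 0.377 in anti-PD-L1 and 1.54 ± 1.21 in CB (SD, n = 3). The difference between anti-PD-L1 and isotype was -2.48 on the log2 scale, but its interval ran from -5.95 to 0.99 and its adjusted p was 0.654 (edgeR), and without anti-PD-L1 1 the difference was -4.07 (adjusted p = 0.662). CB differed from isotype by -0.22 (interval -3.49 to 3.04) and from anti-PD-L1 by 2.26 (interval -1.18 to 5.69, adjusted p = 0.695, edgeR; 3.84 without anti-PD-L1 1 and 1.40 without CB 1). In the latter pair the groups did not overlap, as for 12.7% of all genes, although the lowest CB library was at 0.818 CPM and the highest anti-PD-L1 library at 0.755 CPM. Changes in *Il2* within these intervals could not be told from the spread between mice.

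No type 1 cytokine gene passed the test, and their values overlapped between all pairs of groups. *Ifng* (ENSMUSG00000055170, chr10:118441046-118445892, plus strand), the gene for IFN-γ, had 11, 54 and 106 reads in isotype, 4, 11 and 71 in anti-Lag3, 0, 122 and 27 in anti-PD-L1 and 62, 52 and 122 in CB. The highest and the lowest *Ifng* libraries were both anti-PD-L1 libraries, and every pair of groups overlapped. CB differed from isotype by 0.25 on the log2 scale with an interval of -2.21 to 2.71, anti-PD-L1 by -0.25 (interval -2.72 to 2.22) and anti-Lag3 by -1.10 (interval -3.60 to 1.41), all without a call by edgeR. NK cells also transcribe *Ifng*, and the summed NK cell markers given above were lower in CB than in isotype; their part in the *Ifng* values was not tested.

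*Tnf* (ENSMUSG00000024401, chr17:35199381-35202007, minus strand) encodes the inflammatory cytokine TNF. Isotype libraries held 262, 91 and 176 *Tnf* reads, anti-Lag3 libraries 138, 155 and 116, anti-PD-L1 libraries 76, 123 and 47, and CB libraries 62, 193 and 228. The highest *Tnf* count was in isotype 1, and the groups overlapped in all 6 pairs. The mean level was 9.42 ± 3.71 CPM in isotype, 6.92 ± 0.79 in anti-Lag3, 4.48 ± 2.38 in anti-PD-L1 and 7.68 ± 3.89 in CB (SD, n = 3). Anti-PD-L1 differed from isotype by -1.07 on the log2 scale (interval -2.14 to -0.01), with an unadjusted p of 0.0487 and an adjusted p of 0.593 in edgeR's test. The CB value was -0.29 (interval -1.35 to 0.76).

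Reads of *Il17a*, the type 17 cytokine gene, were confined to 4 libraries. *Il17a* (ENSMUSG00000025929, chr1:20730905-20734496, plus strand) had 0 reads in the 3 isotype libraries, 0, 0 and 10 in anti-Lag3, 0, 18 and 0 in anti-PD-L1, and 0, 31 and 15 in CB. The 0 reads of isotype allow a level of up to 0.0554 CPM over the group, and the CB mean was 0.728 ± 0.746 CPM (SD, n = 3). The adjusted p between CB and isotype was 0.359 (edgeR), and no fold change is given against a group at 0. Genes with a like number of reads in total (within a factor of 1.2) were at 0 in a median of 7 libraries (690 genes), against 8 for *Il17a*. The same measure was 1 library at 0 against a median of 2 for *Il2* (599 genes), and 1 against 0 for *Ifng* (542 genes, of which 31.4% had at least as many libraries at 0). All 3 genes were within 1 library of these medians.

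**Figure D3:**
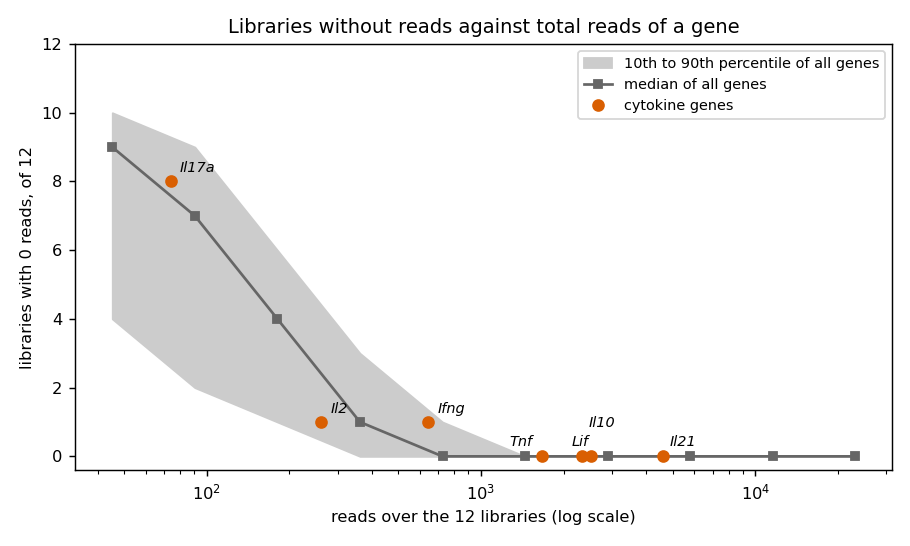
Libraries with 0 reads (vertical axis, of 12) against reads summed over the 12 libraries (horizontal axis, log scale), with the median and the 10th to 90th percentile of all genes in grey and the 7 detected cytokine genes as points. *Il17a* is at 8 libraries with 74 reads, and *Il2* and *Ifng* are at 1 library with 262 and 642 reads.

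The type 2 cytokine gene *Il4* and the growth factor genes *Csf2* and *Il3* were not detected. *Il4* (ENSMUSG00000000869, chr11:53602982-53618669, minus strand), *Csf2* (ENSMUSG00000018916, chr11:54247271-54249667, minus strand), which encodes GM-CSF, and *Il3* (ENSMUSG00000018914, chr11:54265303-54267277, minus strand), which encodes IL-3, each had 0 of 232047713 reads. This count allows a level of up to 0.0129 CPM over all libraries, and of up to 0.0554 CPM in isotype, 0.0521 in anti-Lag3 and in anti-PD-L1, and 0.0479 in CB. The 3 genes lie on chromosome 11, with 15.6 kb between *Csf2* and *Il3*. *Gm12223*, a gene on the opposite strand that also had 0 reads, covers 136 of the last 500 bases of *Csf2*. The last 500 bases of the other 9 cytokine genes, where the 3′ method takes its reads, are not covered by exons of another gene.

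*Il10*, the gene for the anti-inflammatory cytokine IL-10, was detected in every library without a difference that passed the test. *Il10* (ENSMUSG00000016529, chr1:131019845-131024974, plus strand) had 99, 96 and 222 reads in isotype, 169, 435 and 241 in anti-Lag3, 104, 237 and 242 in anti-PD-L1, and 88, 312 and 271 in CB. The lowest and the highest count were in CB 1 and anti-Lag3 2, and every group overlapped every other. The mean level was 7.61 ± 3.64 CPM in isotype, 14.2 ± 6.63 in anti-Lag3, 10.1 ± 3.71 in anti-PD-L1 and 10.7 ± 5.42 in CB (SD, n = 3). The log2 difference from isotype was 0.90 for anti-Lag3 (interval -0.03 to 1.84, adjusted p = 0.805, edgeR), 0.41 for anti-PD-L1 (interval -0.52 to 1.35) and 0.49 for CB (interval -0.44 to 1.43, adjusted p = 0.694, edgeR).

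*Lif* (ENSMUSG00000034394, chr11:4257557-4272514, plus strand) encodes leukaemia inhibitory factor, a cytokine of the IL-6 family. Its reads numbered 82, 155 and 204 in isotype, 195, 127 and 154 in anti-Lag3, 16, 182 and 301 in anti-PD-L1, and 339, 412 and 177 in CB. CB 1 and CB 2 held the highest *Lif* counts, CB 3 lay within the range of isotype, and anti-PD-L1 1 held the lowest count. The mean level was 8.25 ± 3.60 CPM in isotype, 8.08 ± 1.79 in anti-Lag3, 8.28 ± 6.60 in anti-PD-L1 and 15.2 ± 6.22 in CB (SD, n = 3). CB differed from isotype by 0.89 on the log2 scale, with an interval of -0.27 to 2.04 and an adjusted p of 0.462 (edgeR). CB differed from anti-PD-L1 by 0.88 and from anti-Lag3 by 0.91, and neither passed the test.

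Across the 7 tested genes, 1 was called between CB and isotype and 0 in the other 6 comparisons by edgeR. In CB against isotype, where 4.29% of all genes were called, 5 genes had log2 differences above 0 and 2 below, with a median of 0.49, where the median of all genes was 0. *Il17a*, at 0 reads in isotype, is counted as above 0 in each comparison with isotype. With *Il17a* put at its detection limit in isotype, the medians against isotype were unchanged. Only *Il21* was without overlap between CB and isotype, as were 20% of all genes. For anti-PD-L1 against isotype, 0.033% of all genes were called, 2 cytokine genes had an unadjusted p under 0.05 (*Il21* and *Tnf*), as did 7.84% of all genes, and the median over the 7 genes was 0.01. Without overlap there was *Il2*, as were 11.8% of all genes. For anti-Lag3 against isotype, 0% of all genes were called, 1 cytokine gene (*Il21*) had an unadjusted p under 0.05, as did 5.21% of all genes, and the median was -0.03. No cytokine gene was without overlap there, against 10.1% of all genes.

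Set against the single antibodies, CB had log2 differences above 0 in 7 of 7 genes for anti-PD-L1 and in 6 of 7 for anti-Lag3. The medians were 0.88 and 0.91, where the median of all genes was 0 in both. Against anti-PD-L1, *Il10* and *Ifng* changed sign when single samples were left out. Against anti-Lag3, *Il2*, *Il10* and *Tnf* did so. The background was 0.37% of genes called between CB and anti-PD-L1 and 0.694% between CB and anti-Lag3. *Il21* was the only cytokine gene with an unadjusted p under 0.05 in either, where 9.08% and 9.46% of all genes had one. *Il21* and *Il2* were without overlap against anti-PD-L1 (12.7% of all genes) and *Il21* against anti-Lag3 (14.8%). Between anti-PD-L1 and anti-Lag3, and in the interaction, 0% of all genes were called and 0 cytokine genes had an unadjusted p under 0.05, against 4.69% and 5.93% of all genes. No cytokine gene was without overlap between anti-PD-L1 and anti-Lag3, against 8.7% of all genes. DESeq2's Wald test also called 0 cytokine genes in the 6 comparisons other than CB against isotype, while the 3 settings named above called *Il21* between CB and anti-Lag3.

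**Figure D4:**
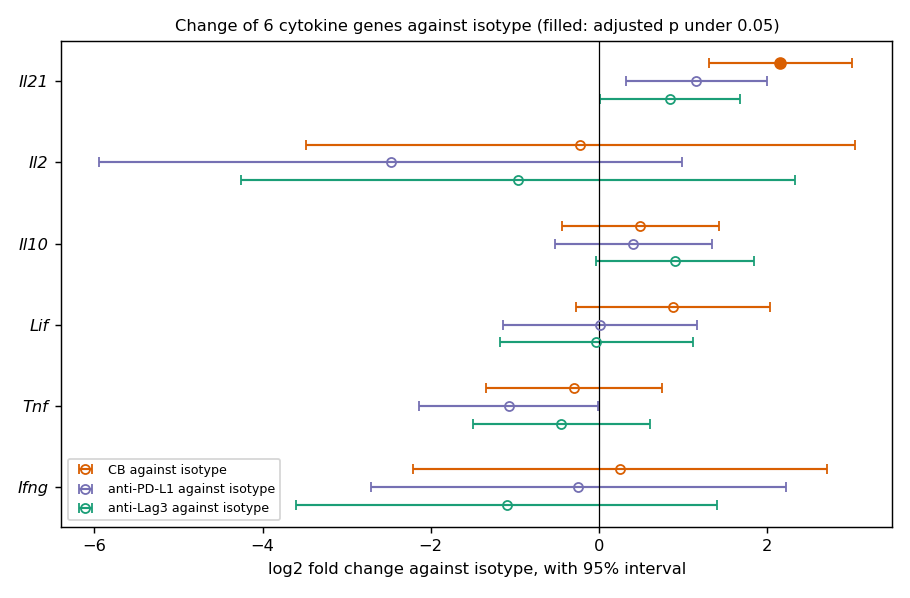
Log2 fold change against isotype (horizontal axis) of 6 cytokine genes (vertical axis) for CB, anti-PD-L1 and anti-Lag3, with 95% intervals from edgeR and filled points for an adjusted p under 0.05. The *Il21* point for CB, at 2.16, is the only filled one, and the *Il2* and *Ifng* intervals are the widest.

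The spread between mice differed from gene to gene. The biological coefficient of variation fitted by edgeR was 0.341 for *Il21*, 0.388 for *Il10*, 0.439 for *Tnf* and 0.473 for *Lif*, beside a median of 0.376 over all genes. It was 0.987 for *Ifng*, 1.26 for *Il2* and 2.42 for *Il17a*, the 3 genes with the fewest reads.

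Other cytokine genes gave few reads or no call by edgeR. Of 21 further cytokine genes, 11 were tested, 6 (*Il5*, *Il13*, *Il6*, *Il24*, *Il31* and *Il12a*) had 0 reads throughout and 4 (*Il9*, *Il17f*, *Il22* and *Csf1*) had 1 to 23 reads in all. None of the 11 was called against isotype in any group by edgeR. The smallest p between CB and isotype belonged to *Il16*, a CD4 ligand gene, at 174 ± 4.31 CPM in isotype and 137 ± 9.53 in CB (log2 -0.35, adjusted p = 0.0936, edgeR, n = 3). *Flt3l*, a dendritic cell growth factor gene, gave -0.69 (adjusted p = 0.106, edgeR) and *Tgfb1*, the gene for TGF-β1, gave -0.62 (adjusted p = 0.108, edgeR). DESeq2's Wald test called these 3 genes lower in CB (adjusted p = 0.0210, 0.0492 and 0.0447). The median over the 11 genes tested was -0.28. *Il22* had 13 reads in anti-PD-L1 2 and 7 and 2 reads in CB 1 and CB 2. Of 8 T cell chemokine genes, 5 were tested and 0 called, and *Ccl1*, *Ccl17* and *Ccl22* had 0 reads. Among them *Ccl5* was at 5.93 ± 1.71 CPM in isotype and 3.54 ± 0.67 in CB (adjusted p = 0.639, edgeR, n = 3). *Ccl3* reads came mainly from isotype 1, with 147 of 236 (adjusted p = 0.649), and *Xcl1* was at 0 in 6 libraries (adjusted p = 1.00).

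Of 19 receptor genes for the cytokines, 16 were tested, and between CB and isotype 1 rose and 1 fell, where 4.29% of all genes were called. *Il2ra*, which encodes the high-affinity chain of the IL-2 receptor, had 281, 380 and 479 reads in isotype, 420, 559 and 556 in anti-Lag3, 474, 439 and 590 in anti-PD-L1, and 499, 870 and 1270 in CB. Every CB library stood above every isotype library in reads, and CB 1 lay among the single-antibody libraries. Of all genes, 20% were without overlap in CPM between CB and isotype. *Il2ra* rose from 21.2 ± 6.14 to 42.2 ± 16.2 CPM, a log2 difference of 0.99 (SE 0.27, adjusted p = 0.0288, edgeR, n = 3). This call was lost without isotype 1 (adjusted p = 0.180), CB 2 (0.0700) or CB 3 (0.294).

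*Il6st*, which encodes gp130, the signalling chain shared by receptors for LIF and IL-6, had 2003, 1539 and 1781 reads in isotype, 1809, 1832 and 1458 in anti-Lag3, 1391, 1066 and 1701 in anti-PD-L1, and 1059, 1268 and 1507 in CB. All 3 CB libraries were below all isotype libraries in reads, where 20% of all genes were without overlap in CPM. *Il6st* fell from 97.5 ± 3.24 to 62.0 ± 7.07 CPM, a log2 difference of -0.65 (SE 0.15, adjusted p = 0.00679, edgeR, n = 3). Without CB 1 the adjusted p was 0.0523. The other chain of the LIF receptor, *Lifr*, had 9 reads, all in isotype 2.

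The remaining receptor genes did not pass the test. *Il21r*, which encodes the IL-21 receptor, had a log2 difference of 0.24 between CB and isotype (adjusted p = 0.408, edgeR). *Il2rb* gave 0.15 and *Il2rg* -0.19. *Csf2rb*, a receptor chain for GM-CSF and IL-3, had 36, 27 and 0 reads in isotype and 0 in each CB library (adjusted p = 0.172, edgeR). *Il17rc* had 0 reads and *Csf2rb2* 3 reads in all. For the single antibodies, 0 of the 16 genes were called by edgeR. The median over the 16 genes was -0.23 in CB, -0.11 in anti-PD-L1 and -0.06 in anti-Lag3 against isotype.

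**Figure D5:**
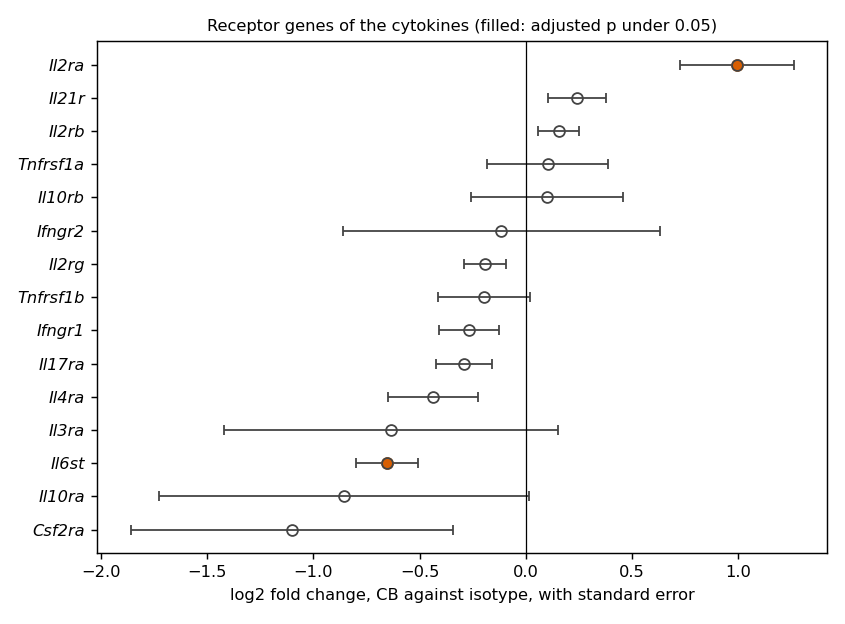
Log2 fold change between CB and isotype (horizontal axis, whiskers are the standard error) of 15 receptor genes with reads in both groups (vertical axis), filled where the adjusted p was under 0.05. *Il2ra* at 0.99 and *Il6st* at -0.65 are the filled points.

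Of genes that act on the cytokines after transcription or signalling, edgeR called 0 between CB and isotype. All 4 feedback genes were tested. *Socs1*, an inhibitor of cytokine receptor signalling, was at 7.07 ± 1.28 CPM in isotype and 13.5 ± 0.82 in CB (log2 0.93, adjusted p = 0.206, edgeR, n = 3), *Socs3* gave 0.39 (adjusted p = 0.423, edgeR) and *Cish* gave -0.90 (adjusted p = 0.440, edgeR). Of 8 genes for factors that bind cytokine messages and change their decay, the smallest p was that of *Zfp36l1*, a member of the tristetraprolin family (log2 -0.36, adjusted p = 0.108, edgeR), which DESeq2's Wald test called lower (adjusted p = 0.0300). *Rc3h2*, which encodes Roquin-2, gave -0.40 (adjusted p = 0.401, edgeR) and *Zfp36l2* gave -0.49 (adjusted p = 0.499, edgeR). The medians were -0.11 over the feedback genes and -0.22 over the decay factors. Neither list had a gene called for a single antibody against isotype by edgeR.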

How the data were processed

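Reads were made with a 3′ kit from RNA of sorted cells, without molecular identifiers. Per the labels and the study's methods, the authors trimmed them with Cutadapt 1.18, mapped them to GRCm38 with STAR 2.6.1a and counted uniquely mapped reads with featureCounts 1.6.4; the strand setting is not given in the sources used here. The authors deposited raw read counts, not normalised, for each gene and also rlog values, DESeq2's log2 transform of scaled counts, which is shrunken for low counts. *Il2* and *Il17a* are among the genes without rlog values. The 0.719 to 1.29% of counts on spike-ins were left out. The number of unused sample columns is 0.

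Symbols and positions were taken from GENCODE for GRCm38. Counts were fitted with edgeR 4.0.16 (limma 3.58.1, R 4.3.3): TMM, 4 group means, all 12 samples, no covariates, 15138 genes with at least 30 reads in sum, quasi-likelihood tests, Benjamini-Hochberg adjustment over all of them in each of 7 comparisons and a threshold of 0.05. CPM are TMM-scaled. Intervals are at 95%. The fit was tested on simulated data. Alternatives were DESeq2 1.42.0, its size factors, tests against a log2 change of 0.2, other filters, a replicate block, the compared groups alone, limma on the rlog values and leaving out each sample; a fit without the 4 samples numbered 1 was chosen after seeing the data. The paper describes sorting in batches of 4, with the 4 groups told apart by the label on their CD4 antibody. It attributes part of the variation between its samples to the sorting batch. Which sample number marks a batch is not given in the sources used here. No pair of samples in a group was a duplicate.

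The genes named are the 10 members, the list genes called against isotype or else the 3 with the smallest p between CB and isotype, and the 3 genes most like a member called; *Il21r*, *Il2rb*, *Il2rg*, *Csf2rb*, genes with few or no reads and the motifs were chosen after their values were seen. The members and lists were chosen with earlier results of these data known.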

Additional observations from a re-analysis of the deposited data

How the results depend on the processing

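The call of *Il21* between CB and isotype was made under all 9 other settings, without the 4 samples numbered 1 and without each of the 12 samples in turn, where the log2 difference without 1 sample was 1.81 to 2.99 and the adjusted p at most 0.0203. The rlog values, which are shrunken, gave 0.67. Between CB and anti-Lag3, the number of cytokine genes called moved from 0 to 1 (*Il21*) without a filter on low counts (adjusted p = 0.00256), with the replicate block (0.0491) and with the compared groups alone (0.0174, all edgeR); the cause was not tested. Leaving out each sample gave 1 to 1 genes called for CB against isotype and 0 to 0 in the other 6 comparisons. The numbers of the mice were not treated as pairs in the main fit. Over 18 pairs of samples with the same number, correlations of deviations from the group means ran from -0.061 to 0.12, 2 of them over 0.1. Pairs of number 1 ran from 0.014 to 0.12, those of number 2 from -0.061 to 0.089 and those of number 3 from 0.043 to 0.086. Of the 12 samples, 8 were closest to their own number among the 3 numbers. Correlations this low cannot settle whether a number marks a sort batch. With the replicate block, 843 genes in place of 649 were called between CB and isotype. Over all genes, calls in this comparison ranged from 233 (DESeq2 against a log2 change of 0.2) to 918 (DESeq2's Wald test), with 364 by edgeR's test against 0.2, 330 without the 4 samples numbered 1, and 394 to 705 without 1 sample. Anti-PD-L1 against isotype gave 56 calls with DESeq2 and 23 with the block, in place of 5, CB against anti-PD-L1 gave 178 and 137 in place of 56, and CB against anti-Lag3 gave 280 and 208 in place of 105. Where edgeR called 0 genes, DESeq2's Wald test called 9 for anti-Lag3 against isotype, 10 for anti-PD-L1 against anti-Lag3 and 5 for the interaction.

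*Il2ra* was not called by tests against a log2 change of 0.2 (adjusted p = 0.0640 with edgeR and 0.248 with DESeq2), nor was *Il6st* by that of DESeq2 (0.131) or without the 4 samples numbered 1 (0.124). *Il16*, *Flt3l*, *Tgfb1* and *Zfp36l1* were called lower in CB than isotype by DESeq2's Wald test (adjusted p = 0.0210, 0.0492, 0.0447 and 0.0300) and by limma on the rlog values (0.0345, 0.0330, 0.0374 and 0.0440).

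Differences that did not pass the test could change direction, all without a call. Without the 4 samples numbered 1, CB against isotype was -0.15 for *Ifng* and 0.39 for *Tnf*. *Lif* gave -0.086 with the block and -0.012 on rlog values for anti-PD-L1 against isotype, 0.13 with the block for anti-Lag3 against isotype, and -0.22 and -0.010 for anti-PD-L1 against anti-Lag3. Without 1 sample, CB against isotype ranged from -0.25 to 0.93 for *Ifng*, from -0.59 to 0.070 for *Tnf* and from -1.08 to 0.081 for *Il2*. Anti-PD-L1 against isotype ranged from -0.56 to 0.54 for *Lif* and from -2.35 to 0.43 for *Ifng*, and anti-Lag3 against isotype from -0.36 to 0.21 for *Lif*. CB against anti-PD-L1 ranged from -0.24 to 0.44 for *Il10* and from -0.087 to 2.597 for *Ifng*. CB against anti-Lag3 ranged from -0.73 to 0.019 for *Il10*, from -0.12 to 1.43 for *Il2* and from -0.14 to 0.52 for *Tnf*. Anti-PD-L1 against anti-Lag3 ranged from -0.54 to 0.57 for *Lif*, from -1.25 to 2.83 for *Ifng* and from -0.10 to 0.66 for *Il21*, and the interaction for *Il21* from -0.68 to 0.56. Mean CPM with DESeq2's size factors moved by less than 1 SD for each gene and group. For the 3 genes at 0, depth left only the detection limit.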

Other observations

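*Il21* overlaps *Gm12534*, an antisense gene that shares exon sequence with it and had 117 reads over the 12 libraries, against 4596 for *Il21*. *Ifng* overlaps *Gm49751* on its own strand, which had 20 reads against 642. Reads that fall in both genes of a pair can be lost or assigned to one of them by the counting, and how far this touched the values was not tested.

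No single library was the highest for most of the cytokine genes. CB 2 held the highest level of 3 genes (*Il21*, *Il17a* and *Lif*), and CB 1, anti-Lag3 2, anti-PD-L1 2 and isotype 1 that of 1 gene each (*Il2*, *Il10*, *Ifng* and *Tnf*). Anti-PD-L1 1 held the lowest level of *Ifng* and *Lif*, and its summed cytokine reads without *Il21* were 209, against 426 to 1017 in the other libraries.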
